A study of Mus musculus with 3 samples.

Results

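The 48 cell cycle and mitosis genes described here are a list of symbols drawn up by role. The roles run from the loading of replication origins before S phase to the exit from mitosis. All 48 were found among the 23183 genes with a value. They were measured by RNA sequencing of whole lung homogenate from female BALB/c mice, in 3 libraries with 1 library per group. The OVA+PM10 library came from mice that were sensitised to ovalbumin (OVA, an egg-white protein used to model allergic asthma) by intraperitoneal injection of 20 µg with aluminium hydroxide, last on day 14, and challenged through the nose on days 21, 22 and 23, and that also received PM10, a certified particulate dust. The PM10 library came from mice that received only the dust, 4 times through the nose within 2 weeks. The control library came from control mice, for which the labels name no vehicle. Lungs were collected 2 days after the final challenge. The labels give doses of 100 and 200 µg of dust without saying which was sequenced, 5 mice per group without saying whether a library held 1 mouse or several, and an age of 10 weeks in one place and of 5 to 6 weeks in another. A group that received ovalbumin alone was not analysed here, so that the part of ovalbumin and the part of its combination with dust in the OVA+PM10 values cannot be told apart.

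Cells that prepare to divide load the MCM helicase onto replication origins, copy their DNA in S phase with nucleotides made for the purpose, and then switch on cyclin B, CDK1 and the Aurora and Polo kinases to build the spindle. The anaphase-promoting complex ends mitosis by marking cyclins and other mitotic proteins for destruction. Most of these genes are transcribed only in cycling cells, under E2F factors for S phase and under the MuvB, B-MYB and FOXM1 complex for mitosis. In the resting lung few cells divide, and in allergic inflammation lymphocytes, macrophages, epithelial and endothelial cells can all enter the cycle.

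Values were FPKM, fragments per kilobase of transcript and per 1000000 mapped, so that levels of different genes can be set side by side. The OVA+PM10, PM10 and control libraries were estimated at about 15.1, 13.1 and 20.0 times 1000000 reads, as judged from the smallest steps between low values. One read in a transcript of 1 kilobase was worth about 0.0660 FPKM in OVA+PM10, 0.0764 FPKM in PM10 and 0.0499 FPKM in control. The lung was recognisable in every library from surfactant protein C (Sftpc, 24439 FPKM in OVA+PM10, 56646 FPKM in PM10 and 22645 FPKM in control) and from Ager, a gene of flat alveolar cells (639 FPKM in OVA+PM10, 1777 FPKM in PM10 and 1228 FPKM in control). The control library also held RNA of squamous epithelium and skeletal muscle: the 15 squamous markers summed to 4.48 FPKM in OVA+PM10, 2.42 FPKM in PM10 and 4810 FPKM in control, and the 9 muscle markers to 31.1 FPKM in OVA+PM10, 21.6 FPKM in PM10 and 3938 FPKM in control. In the OVA+PM10 library 4 squamous and 3 muscle markers were listed at 0, in the PM10 library 7 and 2, and in the control library none. How far this tissue adds to or dilutes the control values of the cell cycle genes was not tested. With 1 library per group the differences below have no replicate check, no p-value is given, and they compare these libraries rather than the treatments.

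The cell cycle genes were higher in the OVA+PM10 library than in either other library, nearly throughout the list. Of the 48 genes, 47 had their highest level in the OVA+PM10 library and 1, Pcna, in the PM10 library, while 26.8% of the 14145 genes with at least 1 FPKM in any library were highest in OVA+PM10. The 48 levels ran from 0.645 FPKM to 110.2 FPKM with a median of 7.28 FPKM in OVA+PM10, from 0.241 to 122.9 FPKM with a median of 2.37 FPKM in PM10, and from 0.318 to 64.7 FPKM with a median of 1.75 FPKM in control. Their summed level was 535 FPKM in OVA+PM10, 288 FPKM in PM10 and 195 FPKM in control, and without the abundant Pcna it was 425 FPKM in OVA+PM10, 165 FPKM in PM10 and 130.4 FPKM in control. As a share of each library's summed FPKM, the 48 genes made up 0.0625% in OVA+PM10, 0.0223% in PM10 and 0.0357% in control, so that OVA+PM10 is highest on both scales while PM10 is above control in FPKM and under it as a share. In a whole tissue, more cells of a cycling type and more RNA per cell cannot be told apart.

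Each gene was compared by the log2 ratio of FPKM + 1, a scale on which low genes differ less than in plain FPKM, and called different at 2-fold or more. Against control, 35 of 48 genes (72.9%) were at least 2-fold higher in OVA+PM10 and 0 were lower, where 9.95% of the 13877 genes that reached 1 FPKM in at least one of those libraries were higher and 8.68% lower. Against PM10, 30 of 48 genes (62.5%) were at least 2-fold higher in OVA+PM10 and 0 were lower, where 11.8% of 13556 genes were higher and 9% lower. The PM10 library was close to control: 3 of 48 genes (6.25%) were at least 2-fold higher and 0 were lower, where 13.6% of 13693 genes were higher and 13.9% lower. Over the genes above the level filter alone, the share for PM10 against control was 3 of 38 (7.89%), and with no filter 8.06% of all 23183 genes were higher and 8.23% lower. With no filter 5.96% of all genes were higher in OVA+PM10 than in control and 6.92% in OVA+PM10 than in PM10. The median log2 ratio of the 48 genes was 1.22 for OVA+PM10 against control, 1.10 for OVA+PM10 against PM10 and 0.05 for PM10 against control, and that of all genes above the level filter was −0.0017, −0.03 and 0.02. The 2 comparisons of OVA+PM10 share that library and are not independent of each other.

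**Figure D1:**
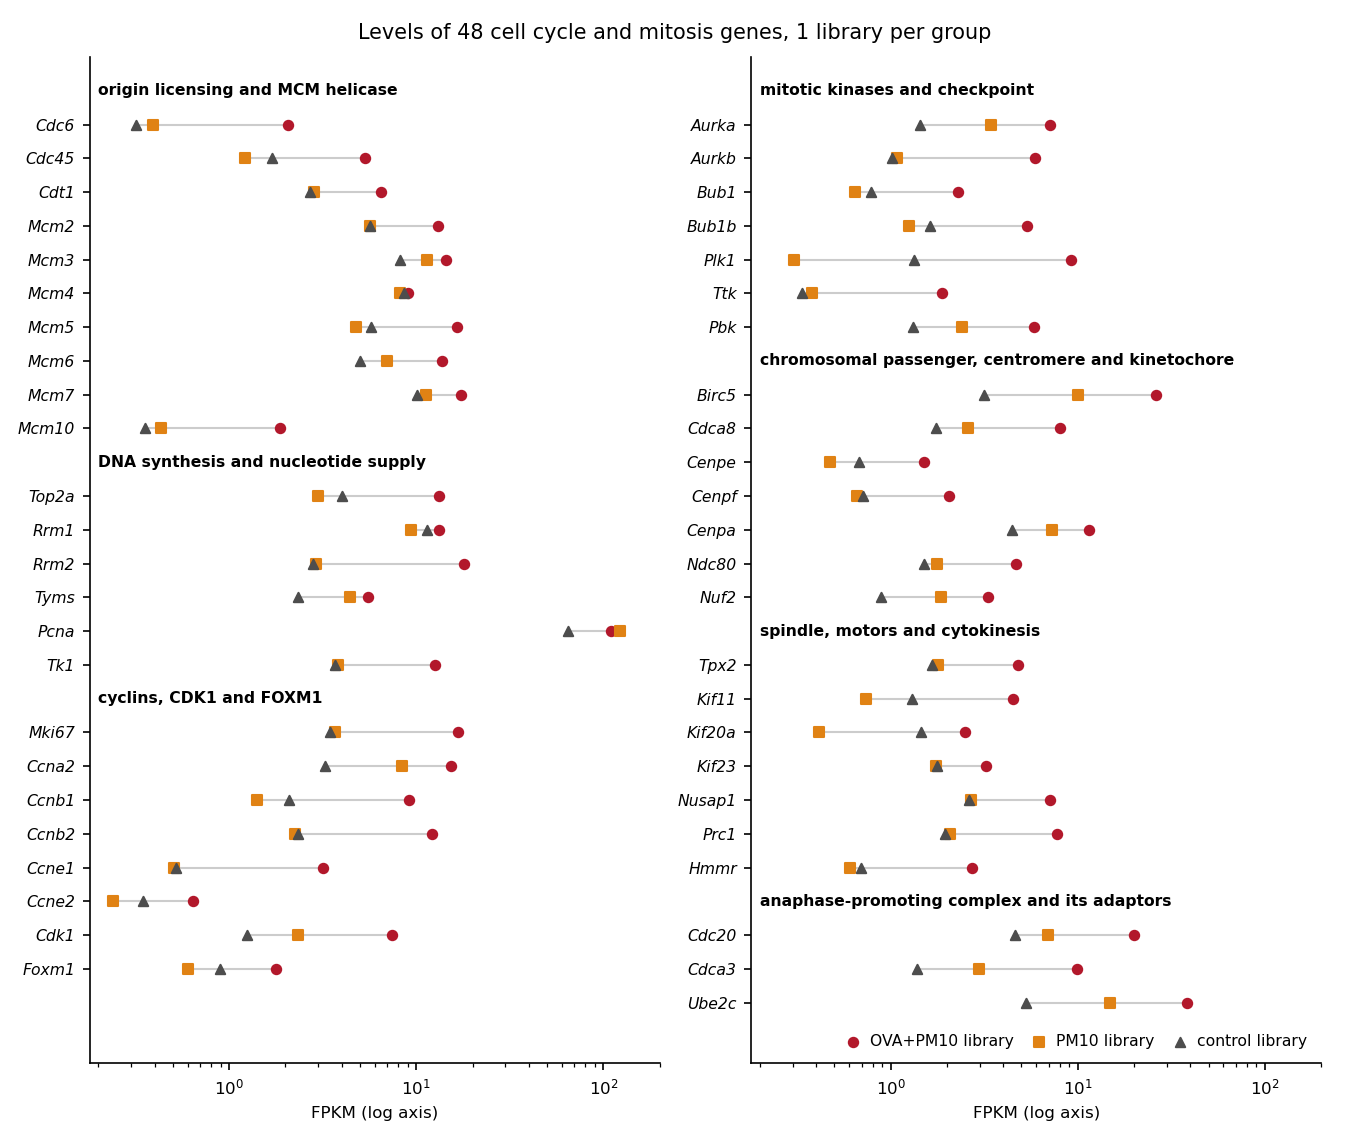
FPKM (log axis) of the 48 genes by role in the OVA+PM10 library (circles), the PM10 library (squares) and the control library (triangles), 1 library per group. The circle is the rightmost symbol in 47 rows, the exception being Pcna at 110.2 FPKM in OVA+PM10 and 122.9 FPKM in PM10.

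**Figure D2:**
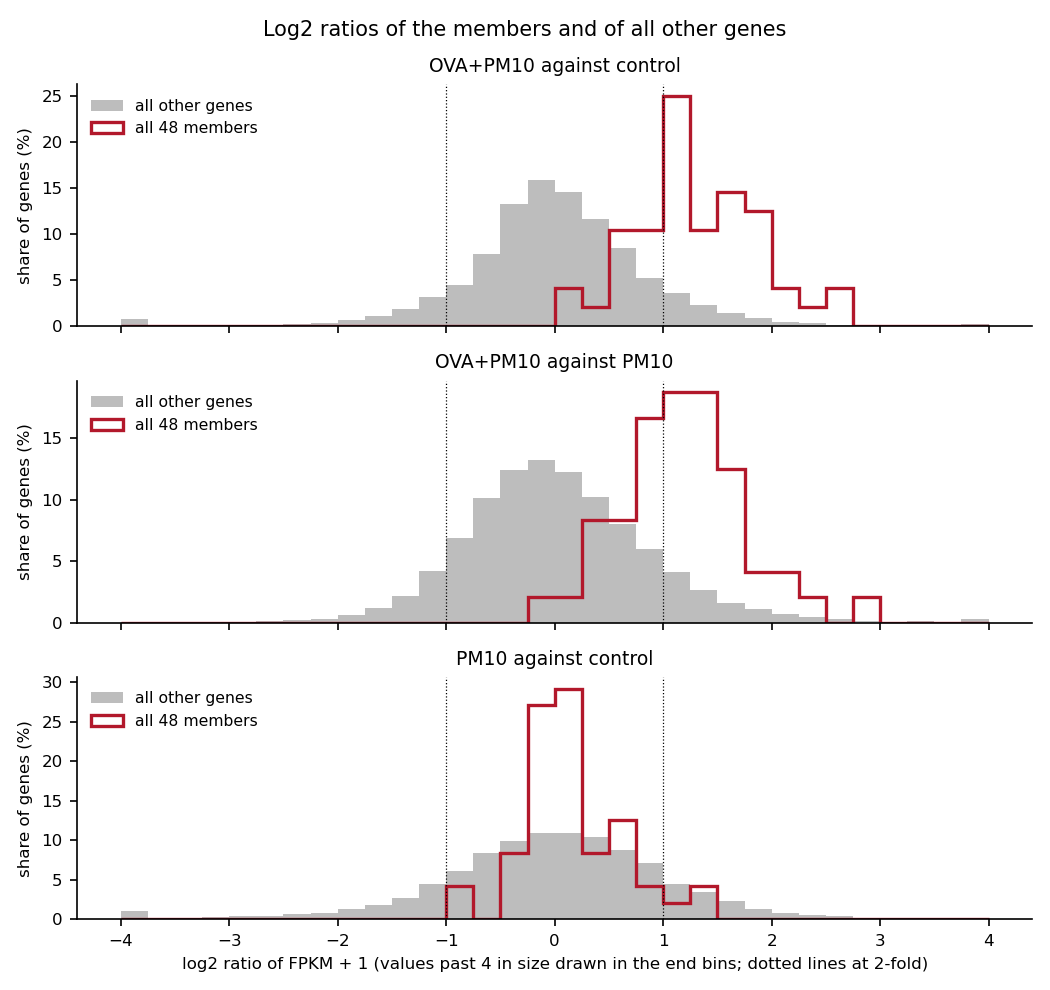
Share of genes by log2 ratio of FPKM + 1, for all other genes that reached 1 FPKM in either library (grey) and for all 48 cell cycle genes (red outline), in the 3 comparisons of the libraries. The cell cycle genes sit to the right of 0 where OVA+PM10 is compared, with medians of 1.22 against control and 1.10 against PM10, and around 0 for PM10 against control, with a median of 0.05.

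Genes of the origin licensing group load and start the replicative helicase, and 7 of 10 were at least 2-fold higher in OVA+PM10 than in control, 5 of 10 than in PM10. Cdc6, a loader of the helicase, had 2.06 FPKM in OVA+PM10, 0.393 FPKM in PM10 and 0.318 FPKM in control. Cdt1, its partner in loading, had 6.46 FPKM in OVA+PM10, 2.84 FPKM in PM10 and 2.72 FPKM in control, a log2 ratio of 1.00 to control and of 0.96 to PM10. Mcm10, which helps the loaded helicase to fire, had 1.88 FPKM in OVA+PM10, 0.434 FPKM in PM10 and 0.354 FPKM in control. Cdc45, a subunit of the active helicase, had 5.33 FPKM in OVA+PM10, 1.22 FPKM in PM10 and 1.70 FPKM in control. On the deposited scale the PM10 and control libraries thus lay near each other for the loading and firing factors, with OVA+PM10 apart from both. Cdc6 and Mcm10 rest on few reads, about 25 and 28 in PM10 and 31 and 35 in control. For PM10 against control the log2 ratio was −0.28 for Cdc45 and 0.05 for Cdt1. With the trend of the ratios over transcript length subtracted, it was −0.61 and −0.09.

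The 6 subunits of the MCM ring did not differ alike, although they act together in 1 complex. Mcm5 had 16.6 FPKM in OVA+PM10, 4.74 FPKM in PM10 and 5.75 FPKM in control, the largest log2 ratio of the ring to control (1.38) and to PM10 (1.62). Mcm6 had 13.7 FPKM in OVA+PM10, 6.96 FPKM in PM10 and 4.99 FPKM in control, and Mcm2 had 13.1 FPKM in OVA+PM10, 5.69 FPKM in PM10 and 5.65 FPKM in control. Mcm4 was nearly level over the libraries, at 9.04 FPKM in OVA+PM10, 8.20 FPKM in PM10 and 8.60 FPKM in control, and had the lowest ratio to control of all 48 genes (1.05-fold in FPKM). Mcm3 had 14.5 FPKM in OVA+PM10, 11.5 FPKM in PM10 and 8.15 FPKM in control, and Mcm7 had 17.4 FPKM in OVA+PM10, 11.3 FPKM in PM10 and 10.0 FPKM in control, both under 2-fold at log2 ratios to control of 0.76 and 0.74. In all, 3 of the 6 subunits were at least 2-fold higher in OVA+PM10 than in control and 2 of 6 than in PM10.

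Among the 6 genes of DNA synthesis and nucleotide supply, 3 were at least 2-fold higher in OVA+PM10 than in control and the same number than in PM10. Rrm2, the small subunit of ribonucleotide reductase and the one whose level limits the enzyme, had 18.05 FPKM in OVA+PM10, 2.93 FPKM in PM10 and 2.80 FPKM in control, a log2 ratio of 2.33 to control and of 2.28 to PM10. Its large partner Rrm1, a more stable protein, had 13.2 FPKM in OVA+PM10, 9.41 FPKM in PM10 and 11.4 FPKM in control, within 2-fold in every comparison. The Rrm2 to Rrm1 ratio was therefore 1.37 in OVA+PM10, 0.311 in PM10 and 0.246 in control. Thymidine kinase Tk1 had 12.6 FPKM in OVA+PM10, 3.81 FPKM in PM10 and 3.69 FPKM in control. Top2a, which untangles the copied strands, had 13.3 FPKM in OVA+PM10, 2.98 FPKM in PM10 and 3.99 FPKM in control. Both were at least 2-fold higher in OVA+PM10 than in either other library.

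Pcna and Tyms stood apart from that pattern. Pcna, the sliding clamp of the polymerases and also used in DNA repair, had 110.2 FPKM in OVA+PM10, 122.9 FPKM in PM10 and 64.7 FPKM in control, a log2 ratio of 0.76 for OVA+PM10 and of 0.92 for PM10, each to control. Thymidylate synthase Tyms had 5.55 FPKM in OVA+PM10, 4.41 FPKM in PM10 and 2.34 FPKM in control. For both genes the PM10 library was on the side of OVA+PM10 on the deposited scale, and neither gene reached 2-fold there in any comparison of log2 ratios. Pcna has the shortest transcript of the list (1518 bases). With the trend of the ratios over transcript length subtracted, Pcna was at 0.31 for PM10 against control and at 0.14 for OVA+PM10 against PM10. Tyms was then at 0.73 for PM10 against control and at 1.00 for OVA+PM10 against control.

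Of the 8 cyclins, CDK1 and proliferation regulators, 6 were at least 2-fold higher in OVA+PM10 than in control. Cyclin E starts S phase: Ccne1 had 3.16 FPKM in OVA+PM10, 0.505 FPKM in PM10 and 0.519 FPKM in control, while its paralog Ccne2 stayed below 1 FPKM in all libraries at 0.645 FPKM in OVA+PM10 (about 29 reads), 0.241 FPKM in PM10 (about 9 reads) and 0.346 FPKM in control (about 21 reads). Ccna2, the cyclin of S phase and G2, had 15.3 FPKM in OVA+PM10, 8.35 FPKM in PM10 and 3.26 FPKM in control, and was 1 of the 3 genes at least 2-fold higher in PM10 than in control. The mitotic cyclin Ccnb1 had 9.16 FPKM in OVA+PM10, 1.42 FPKM in PM10 and 2.09 FPKM in control. Ccnb2, the other B-type cyclin, had 12.1 FPKM in OVA+PM10, 2.24 FPKM in PM10 and 2.34 FPKM in control. For the B-type cyclins, then, the PM10 library was level with or under control, unlike Ccna2.

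Cdk1, the kinase these cyclins activate, had 7.43 FPKM in OVA+PM10, 2.33 FPKM in PM10 and 1.25 FPKM in control. Mki67, the gene of the Ki-67 protein by which dividing cells are stained, had 16.8 FPKM in OVA+PM10, 3.66 FPKM in PM10 and 3.47 FPKM in control, 4.84-fold of control in FPKM, and the PM10 and control libraries were nearly equal on that scale. Its transcript is long (10061 bases). With the trend of the ratios over transcript length subtracted, its log2 ratio of PM10 to control was 0.97, beside 0.06 before. Foxm1, the transcription factor of mitotic genes, was low, at 1.77 FPKM in OVA+PM10, 0.604 FPKM in PM10 and 0.890 FPKM in control, and its log2 ratio of 0.55 to control did not reach 2-fold.

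The mitotic kinases and checkpoint genes were at least 2-fold higher in OVA+PM10 than in control in 6 of 7 cases and than in PM10 in 5 of 7. Plk1, the Polo kinase that drives entry into mitosis and cytokinesis, had 9.18 FPKM in OVA+PM10, 0.306 FPKM in PM10 and 1.34 FPKM in control. These levels rest on about 306 reads in OVA+PM10, 9 in PM10 and 59 in control. Plk1 had the largest log2 ratio of the list between OVA+PM10 and PM10 (2.96) and the lowest between PM10 and control (−0.84). Aurora A (Aurka), which matures the spindle poles, had 7.14 FPKM in OVA+PM10, 3.42 FPKM in PM10 and 1.43 FPKM in control. Aurora B (Aurkb), which corrects faulty attachments of chromosomes, had 5.88 FPKM in OVA+PM10, 1.09 FPKM in PM10 and 1.01 FPKM in control. On the deposited scale the PM10 library thus stood between the others for Aurka, at the control level for Aurkb and under it for Plk1. Its log2 ratios to control were 0.86 for Aurka and 0.05 for Aurkb. After the length trend was subtracted they were 0.41 for Aurka and −0.40 for Aurkb, and that of Plk1 was −1.12.

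The checkpoint kinases hold back anaphase until chromosomes are attached. Bub1b had 5.37 FPKM in OVA+PM10, 1.26 FPKM in PM10 and 1.62 FPKM in control, and Ttk had 1.87 FPKM in OVA+PM10, 0.378 FPKM in PM10 and 0.335 FPKM in control. Bub1 had 2.28 FPKM in OVA+PM10, 0.642 FPKM in PM10 and 0.782 FPKM in control, a log2 ratio of 0.88 to control. Pbk, a kinase active in mitosis, had 5.81 FPKM in OVA+PM10, 2.41 FPKM in PM10 and 1.32 FPKM in control. Every one of these genes was highest in OVA+PM10, and Pbk alone among them was higher in PM10 than in control by more than 0.5 on the log2 scale. Its transcript is short (1720 bases), and with the trend of the ratios over transcript length subtracted that log2 ratio was 0.03.

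In the chromosomal passenger, centromere and kinetochore group, 5 of 7 genes were at least 2-fold higher in OVA+PM10 than in control and 3 of 7 than in PM10. Survivin (Birc5), the passenger complex subunit that also binds caspases, had 26.1 FPKM in OVA+PM10, 10.0 FPKM in PM10 and 3.15 FPKM in control. Its log2 ratio of 2.71 between OVA+PM10 and control (8.29-fold in FPKM) and of 1.41 between PM10 and control (3.17-fold) were the largest of the list in those comparisons. Borealin (Cdca8), of the same complex, had 8.01 FPKM in OVA+PM10, 2.59 FPKM in PM10 and 1.74 FPKM in control. Cenpa, the histone that marks centromeres, had 11.5 FPKM in OVA+PM10, 7.26 FPKM in PM10 and 4.46 FPKM in control, and Nuf2, an arm of the complex that grips microtubules, had 3.31 FPKM in OVA+PM10, 1.86 FPKM in PM10 and 0.883 FPKM in control. For these genes the levels descended stepwise over OVA+PM10, PM10 and control.

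For the other kinetochore genes the PM10 level was nearer to control. Ndc80, the partner of Nuf2, had 4.69 FPKM in OVA+PM10, 1.77 FPKM in PM10 and 1.52 FPKM in control. Cenpf had 2.06 FPKM in OVA+PM10, 0.659 FPKM in PM10 and 0.716 FPKM in control, and the motor Cenpe had 1.499 FPKM in OVA+PM10, 0.473 FPKM in PM10 and 0.678 FPKM in control. Cenpe and Cenpf were below 1 FPKM in both PM10 and control, where the pseudocount holds their ratios down.

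Genes of the spindle and of cytokinesis were at least 2-fold higher in OVA+PM10 than in control in 5 of 7 cases and than in PM10 in 6 of 7. Prc1, which bundles microtubules at the midzone, had 7.73 FPKM in OVA+PM10, 2.07 FPKM in PM10 and 1.95 FPKM in control. Nusap1 had 7.12 FPKM in OVA+PM10, 2.69 FPKM in PM10 and 2.63 FPKM in control, Tpx2 had 4.82 FPKM in OVA+PM10, 1.79 FPKM in PM10 and 1.66 FPKM in control, and Hmmr had 2.73 FPKM in OVA+PM10, 0.605 FPKM in PM10 and 0.696 FPKM in control. These 3 genes, which assemble or cross-link spindle microtubules, had log2 ratios of 1.16, 1.13 and 1.14 for OVA+PM10 against control and of 0.02, 0.06 and −0.08 for PM10 against control. The motor Kif11, which pushes the poles apart, had 4.53 FPKM in OVA+PM10, 0.736 FPKM in PM10 and 1.31 FPKM in control. Kif20a, a motor of cytokinesis, had 2.49 FPKM in OVA+PM10, 0.416 FPKM in PM10 and 1.45 FPKM in control. Kif23, a motor of the central spindle, had 3.24 FPKM in OVA+PM10, 1.75 FPKM in PM10 and 1.77 FPKM in control. The highest log2 ratio of PM10 to control in this group was 0.06, and Kif11 and Kif20a were lower, at −0.41 and −0.79.

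All 3 members that work with or under the anaphase-promoting complex were at least 2-fold higher in OVA+PM10 than in either other library, with a median log2 ratio to control of 2.19, the highest of the 7 role groups. Ube2c, the enzyme that starts ubiquitin chains for the complex, had 38.3 FPKM in OVA+PM10, 14.9 FPKM in PM10 and 5.30 FPKM in control. Cdc20, its mitotic activator, had 20.0 FPKM in OVA+PM10, 6.94 FPKM in PM10 and 4.63 FPKM in control. Cdca3, a trigger of mitotic entry that the complex later destroys, had 9.90 FPKM in OVA+PM10, 2.97 FPKM in PM10 and 1.39 FPKM in control. The 3 genes share the stepwise order seen for Birc5. That order was found for 28 of the 48 genes, of which 47 were highest in OVA+PM10 and 29 were above control in PM10. Of all 13693 genes above the level filter, 6963 were above control in PM10. The share of all genes with the stepwise order was not counted. With the trend of the ratios over transcript length subtracted, the log2 ratio of PM10 to control was 1.05 for Ube2c, 0.32 for Cdca3 and 0.01 for Cdc20.

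In the PM10 library 29 of the 48 genes were above control and 19 under it, and of all 13693 genes above the level filter 6963 were above control. Birc5, Ube2c and Ccna2 were at least 2-fold higher in PM10 than in control, at log2 ratios of 1.41, 1.33 and 1.13. In plain FPKM, without the pseudocount, Plk1 and Kif20a were at 0.228-fold and 0.287-fold of control. Few reads stood behind some of the levels: 16 of the 48 genes had under about 50 reads in PM10, 1 in OVA+PM10 and 7 in control.

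The level filter bears on the counts. At least 1 FPKM in the higher library was reached by 47 genes for OVA+PM10 against each other library and by 38 for PM10 against control, and Ccne2 passed in none. Against control, 10 genes passed the filter through the OVA+PM10 library alone, 6 of them at least 2-fold higher, and against PM10 12 genes did so, 9 of them at least 2-fold higher. Among the 43 genes with a mean of at least 1 FPKM over the libraries, 32 were at least 2-fold higher in OVA+PM10 than in control, 27 in OVA+PM10 than in PM10 and 3 in PM10 than in control.

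Scaling bears on the split as well. The summed FPKM was 855739 in OVA+PM10, 1293180 in PM10 and 546315 in control, and scaling each library to the same sum of 1000000 moved the median log2 ratio of all genes to −0.58 for OVA+PM10 against control, 0.49 for OVA+PM10 against PM10 and −1.03 for PM10 against control. On that scale 19 cell cycle genes passed 2-fold upward and 0 downward in OVA+PM10 against control (652 and 3560 of all genes), and 42 passed it upward and 0 downward in OVA+PM10 against PM10 (3354 and 341 of all genes). For PM10 against control 0 were higher and 11 lower (262 and 7392 of all genes). Relative to the median of all genes, the median of the cell cycle genes was 1.47 higher for OVA+PM10 against control on that scale and 1.23 higher on the deposited scale. For OVA+PM10 against PM10 it was 1.03 and 1.16 higher, and for PM10 against control 0.27 and 0.04 higher.

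Transcript length went with the ratios across genes. The Spearman correlation of log2 ratio and length was −0.36 over 13812 genes and −0.42 over 47 cell cycle genes for OVA+PM10 against control, and −0.48 over 13623 genes and −0.21 over 38 cell cycle genes for PM10 against control. Between OVA+PM10 and PM10 the signs were opposite, 0.26 over 13487 genes and −0.22 over 47 cell cycle genes. These are descriptions across genes that share libraries, not tests. Of the 16 shortest transcripts of the list (1518 to 2871 bases), 15 were at least 2-fold higher in OVA+PM10 than in control, of the next 16 genes 9, and of the 16 with the longest transcripts (3847 to 11130 bases) 11. Among all genes the median log2 ratio was 0.18 in the shortest of these ranges and −0.23 in the longest. With a running median over length subtracted, 36 cell cycle genes were higher in OVA+PM10 than in control and 30 than in PM10, where 7.56% and 12.0% of all genes above the level filter were higher. For PM10 against control, 2 were then higher (Birc5 at 1.39 and Ube2c at 1.05) and 1 lower (Plk1 at −1.12), while Ccna2 was at 0.98. Of all genes above the level filter, 7.63% were higher and 11.2% lower in that comparison.

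**Figure D3:**
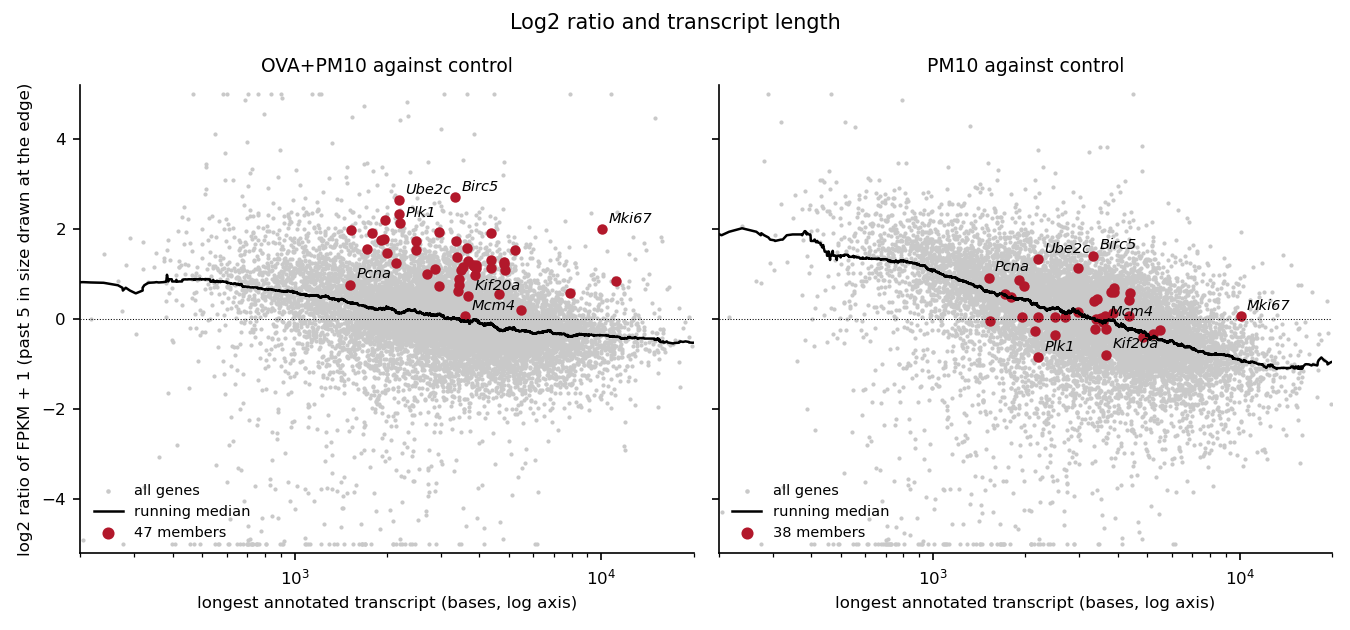
Log2 ratio of FPKM + 1 against transcript length (log axis) for OVA+PM10 against control and PM10 against control, with all genes as grey points, their running median as a line and the cell cycle genes above the level filter as red points (47 and 38). For OVA+PM10 against control 36 of the 47 cell cycle genes lie at least 2-fold above the line, where 7.56% of all genes do, and they scatter around it for PM10 against control.

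Other genes of the cycle were read from 7 lists, chosen by function, with 143 of 145 symbols in the files. In OVA+PM10, 36 of these 143 were higher than in control by at least 2-fold and 2 were lower, and their median log2 ratio was 0.49. Against PM10, 26 passed 2-fold upward in OVA+PM10 and 5 downward, around a median of 0.47. For PM10 against control, 17 passed it upward and 7 downward around a median of 0.09, shares near or under the 13.6% and 13.9% of all genes above the level filter. With the length trend subtracted, the PM10 against control counts were 5 upward and 6 downward, where 7.63% and 11.2% of all genes above the level filter passed. The OVA+PM10 against control counts were then 36 and 3, where 7.56% and 8.33% of all genes passed. Against PM10, 32 then passed upward and 1 downward in OVA+PM10, where 12.0% and 6.66% of all genes passed. Of the 36, 25 were among the 50 other mitosis genes and 9 among the 32 genes of origin recognition, the GINS complex and the polymerases.

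Among other mitosis genes, Nek2, a kinase that separates centrosomes, had 12.8 FPKM in OVA+PM10, 3.91 FPKM in PM10 and 2.06 FPKM in control. Securin (Pttg1), which holds back the enzyme that cuts sister chromatids apart, had 28.9 FPKM in OVA+PM10, 19.6 FPKM in PM10 and 5.68 FPKM in control, and Cks1b, a small partner of CDKs, had 38.5 FPKM in OVA+PM10, 25.1 FPKM in PM10 and 7.34 FPKM in control. Both of these were also at least 2-fold higher in PM10 than in control on the deposited scale, and with the length trend subtracted that log2 ratio was 1.07 for Pttg1 and 0.40 for Cks1b, whose transcript is short (849 bases). The condensin subunit Ncapd2 had 5.67 FPKM in OVA+PM10, 0.378 FPKM in PM10 and 1.73 FPKM in control, an order like that of Plk1. Of the replication genes, Gins2, a subunit of the active helicase, had 12.4 FPKM in OVA+PM10, 5.25 FPKM in PM10 and 2.41 FPKM in control. Uhrf1, which keeps DNA methylation through replication, had 6.95 FPKM in OVA+PM10, 1.96 FPKM in PM10 and 1.83 FPKM in control.

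The lists that govern the decision to enter the cycle did not show this pattern. None of 8 G1 cyclins and CDKs was 2-fold different between OVA+PM10 and control, and their median log2 ratio was −0.19. Cdk4 had 92.6 FPKM in OVA+PM10, 59.7 FPKM in PM10 and 53.3 FPKM in control. Ccnd2, a D-type cyclin, had 29.0 FPKM in OVA+PM10, 6.68 FPKM in PM10 and 35.7 FPKM in control, so that here the PM10 library was the one that differed. Cdk6 had 3.995 FPKM in OVA+PM10, 1.02 FPKM in PM10 and 6.63 FPKM in control. Their transcripts are long (6330 and 11525 bases), and after the length trend was subtracted the log2 ratio of PM10 to control was −1.67 for Ccnd2 and −0.91 for Cdk6.

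Of 19 genes of the RB, E2F, DREAM and MYB list, 1 was at least 2-fold higher in OVA+PM10 than in control: Mybl2, the B-MYB partner of mitotic promoters, with 1.66 FPKM in OVA+PM10, 0.136 FPKM in PM10 and 0.197 FPKM in control. Of 8 CDK inhibitors, Cdkn3, which despite its place in that list is itself made in cycling cells, was higher, at 8.65 FPKM in OVA+PM10, 5.66 FPKM in PM10 and 1.78 FPKM in control. Cdkn1b (p27), a brake kept in resting cells, was lower, at 11.6 FPKM in OVA+PM10, 13.4 FPKM in PM10 and 26.6 FPKM in control, a log2 ratio to control of −1.13, or −0.93 with the length trend subtracted. Of 11 genes of p53 and its targets none was higher in OVA+PM10 than in control and 1, Sfn, was lower, at 12.9 FPKM in OVA+PM10, 6.92 FPKM in PM10 and 39.6 FPKM in control. Sfn is also abundant in squamous epithelium, whose markers summed to 4.48 FPKM in OVA+PM10 and 4810 FPKM in control, and the part of that tissue in its level was not tested.

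The list of the anaphase-promoting complex core differed from the members Cdc20, Ube2c and Cdca3. None of its 15 genes was 2-fold different between OVA+PM10 and control, with a median log2 ratio of 0.27, beside 3 of 3 for those members. The 15 also hold Ube2s, Fzr1 and Fbxo5, which act with or on the complex and are not core subunits. Their log2 ratios to control in OVA+PM10 were 0.80, 0.57 and 0.57. For PM10 against control, 3 of the 15 were higher, Anapc13 with 286 FPKM in OVA+PM10, 720 FPKM in PM10 and 199.7 FPKM in control, Cdc26 and Ube2s. These 3 were highest in the PM10 library. Of all genes above the level filter 13.6% were higher in PM10 than in control, and with the length trend subtracted the count was 2 of 15, with Anapc13 at a log2 ratio of 0.98.

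**Figure D4:**
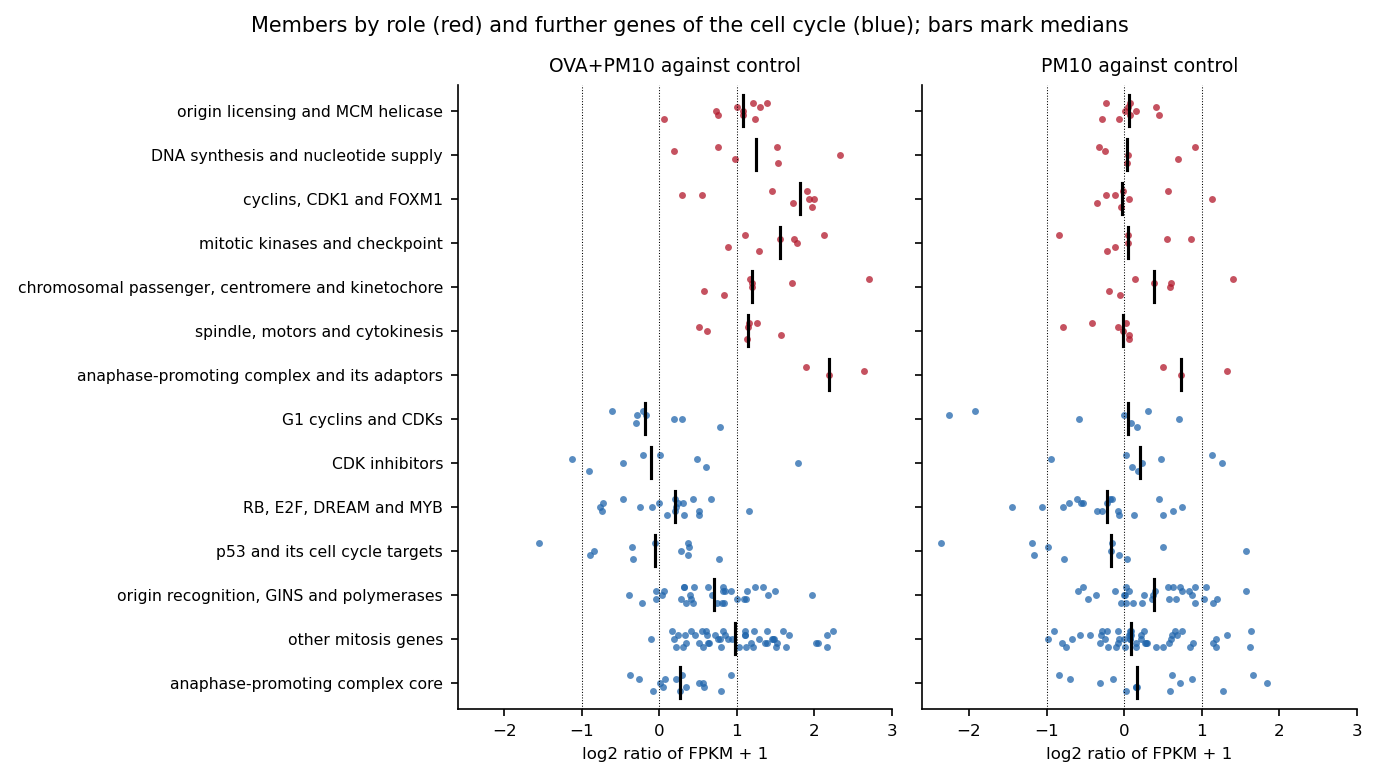
Log2 ratio of FPKM + 1 of the 48 cell cycle genes by role (red) and of 143 further cell cycle genes by list (blue), for OVA+PM10 against control and PM10 against control, with a bar at each median and dotted lines at 0 and at 2-fold. For OVA+PM10 against control the medians of the 7 role groups lie between 1.08 and 2.19, those of the other mitosis and replication lists at 0.98 and 0.71, and those of the remaining lists between −0.19 and 0.27.

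Markers of cells that divide in an inflamed lung were read beside these values. The 10 T cell markers summed to 168 FPKM in OVA+PM10, 205 FPKM in PM10 and 98.0 FPKM in control, and none was listed at 0. The 11 B cell and germinal centre markers summed to 249.9 FPKM in OVA+PM10, 242 FPKM in PM10 and 149.6 FPKM in control. The 10 macrophage markers summed to 5195 FPKM in OVA+PM10, 5537 FPKM in PM10 and 3554 FPKM in control. In each of these lists the PM10 sum was near that of OVA+PM10 or above it, while the cell cycle genes in PM10 were near control.

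The 9 erythroid markers summed to 7223 FPKM in OVA+PM10, 20903 FPKM in PM10 and 3470 FPKM in control, nearly all of it hemoglobin, and 1 of the 9 was listed at 0 in control. The transcription factors of this list, Gata1 and Klf1, were highest in OVA+PM10, while its hemoglobin was highest in PM10. Gata1, which takes part in setting up the erythroid lineage, had 1.81 FPKM in OVA+PM10, 0.441 FPKM in PM10 and 0.331 FPKM in control. Klf1, which switches on globin genes, had 1.02 FPKM in OVA+PM10, 0.103 FPKM in PM10 and 0.163 FPKM in control. Both were under 1 FPKM in PM10 and control, and whether they came from erythroid precursors was not tested. The 7 male germ cell markers summed to 1.01 FPKM in OVA+PM10, 0.671 FPKM in PM10 and 1.43 FPKM in control, with 3 listed at 0 in each. The share of any of these cell types in the cell cycle values was not tested.

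The promoters of the genes were read for the elements that E2F and the mitotic complexes are known to use. RefSeq windows on GRCm38.p6, from 250 bases before to 50 after the start of transcription, were matched by symbol for 40 of the 48 genes, with 42 windows in all. Ccne2, Kif20a, Aurkb, Pbk, Ccna2, Tpx2, Foxm1 and Mcm4 had none. On both strands, the NF-Y box (CCAAT) was in 33 of 42 windows (78.6%), in 37.4% of all 32851 windows and in 36.7% of the 13536 windows of other genes with at least 1 FPKM in a library. The cell cycle homology region CHR, searched as TTTGAA or TTTAAA, was in 29 of 42 (69.0%), in 27.6% of all windows and in 19.6% of those of other expressed genes. The E2F site, searched as TTTCGCGC or TTTGGCGC, was in 6 of 42 (14.3%), in 0.813% of all windows and in 1.35% of those of other expressed genes. Of the 6 windows with an E2F match, 5 belonged to the licensing group (Cdt1, Mcm3, Mcm5, Mcm6 and Mcm7) and 1 to Cdk1, while a CHR was in 3 of the 10 windows of the licensing group and in 26 of the 32 others. In 2 places an NF-Y match shared bases with a match of another kind. These are matches of letters, not measured binding.

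The upstream bases of 4 genes are shown because these genes had the largest ratios among those with at least 5 FPKM: Plk1 (chr7:122159185-122159434, + strand), Birc5 (chr11:117848987-117849236, + strand), Ube2c (chr2:164769679-164769928, + strand) and Rrm2 (chr12:24708004-24708253, + strand). Each run holds the 250 bases before the start of transcription, 5′ to 3′, from RefSeq on GRCm38.p6, with matches to the NF-Y box and the CHR on either strand in capitals.
Plk1: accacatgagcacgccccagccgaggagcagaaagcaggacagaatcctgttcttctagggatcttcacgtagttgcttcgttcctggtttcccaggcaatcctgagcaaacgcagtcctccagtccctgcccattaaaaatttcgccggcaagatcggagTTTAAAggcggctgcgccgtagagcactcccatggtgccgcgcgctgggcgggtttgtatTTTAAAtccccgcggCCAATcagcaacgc
Birc5: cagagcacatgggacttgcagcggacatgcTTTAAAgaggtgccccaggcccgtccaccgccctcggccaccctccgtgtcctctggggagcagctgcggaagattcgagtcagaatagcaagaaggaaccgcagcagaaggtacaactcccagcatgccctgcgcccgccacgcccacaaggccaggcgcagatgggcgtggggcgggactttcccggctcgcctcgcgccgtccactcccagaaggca
Ube2c: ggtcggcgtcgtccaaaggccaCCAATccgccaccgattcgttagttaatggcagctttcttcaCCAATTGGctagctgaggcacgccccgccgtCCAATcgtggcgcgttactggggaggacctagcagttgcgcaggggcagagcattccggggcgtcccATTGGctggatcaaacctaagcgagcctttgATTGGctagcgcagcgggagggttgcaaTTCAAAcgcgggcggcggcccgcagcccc
Rrm2: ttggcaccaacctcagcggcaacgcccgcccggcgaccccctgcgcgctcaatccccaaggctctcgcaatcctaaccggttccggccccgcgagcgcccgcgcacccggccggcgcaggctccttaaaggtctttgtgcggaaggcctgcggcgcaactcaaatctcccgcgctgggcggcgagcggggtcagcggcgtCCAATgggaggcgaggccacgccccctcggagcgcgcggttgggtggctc
The Plk1 run has 1 NF-Y match and 2 CHR matches, the nearer at −29 bases from the start. The Ube2c run has 6 NF-Y matches and 1 CHR match, also at −29. The Rrm2 run has 1 NF-Y match at −50 and, before the start, no CHR match. The Birc5 run has 1 CHR match at −220 and no NF-Y match. The windows behind the counts above go on for 50 bases past the start, and there Rrm2 has a CHR match beginning at the start base (position 0) and Plk1 a further one at 30.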

How the data were processed

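RNA of whole lung was sequenced after library preparation with the strand-keeping NEBNext Ultra II Directional kit according to the labels' protocols, with 1 library in each of 3 groups, assigned by title. The deposited values were FPKM for 23183 genes in each library. No header names this unit, which was judged from the values. TopHat and mm10 were used per the submitters' processing notes, and neither the counting program nor the annotation nor the use of strand is stated there. Values of close paralogs and overlapping genes are therefore uncertain. Depth was estimated from the lowest values times transcript length (GENCODE M21, GRCm38) and is approximate.

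Log2 ratios of FPKM + 1 were computed on the deposited scale, and a gene was called at 2-fold or more with 1 FPKM or more in the higher of the libraries. No test was possible with 1 library per group. The 48 genes and all lists were chosen with earlier results of these data known. The 48 genes are all accounted for. From the other lists, those named are up to 4 per list with the largest ratios in size at 1 FPKM or more, and Fbxo5. Some marker genes are not reported here. Promoters were printed for the genes with the largest ratios in size at 5 FPKM or more. Alternatives were pseudocounts of 0.25 and 5 FPKM, no filter or one at 5 FPKM, thresholds of 1.5-fold and 4-fold, median-ratio scaling, scaling to the same sum, and subtraction of a running median of 501 genes over length. The code (Python 3.11.15, numpy 2.4.6, pandas 2.3.3) was tested on simulated data.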

Additional observations from a re-analysis of the deposited data

How the results depend on the processing

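With 1 library per group no library could be left out, and no paired analysis was possible because the groups share no replicates. Of 75 recomputed values, 53 stayed within 1.5 times the reported count or 0.2 of the reported median log2 ratio, taken here over genes above the level filter (1.23 for OVA+PM10 against control, 1.13 for OVA+PM10 against PM10, 0.06 for PM10 against control), and 22 moved further. Some of the 53 could not move, so that the tally is no measure of stability. A gene under 1 FPKM in both libraries cannot pass 2-fold with a pseudocount of 1 FPKM, so that dropping the filter leaves the counts unchanged. A count of 0 cannot fall with a larger pseudocount or a higher fold. With a filter at 5 FPKM, 26 of 32 genes were higher in OVA+PM10 than in control and 20 of 32 than in PM10. No cell cycle gene was at least 2-fold lower in OVA+PM10 than in either other library under any alternative run. For OVA+PM10 against control, the median was 1.65 with a pseudocount of 0.25 FPKM, 0.67 with 5 FPKM, 1.54 with a filter at 5 FPKM and 0.89 at the same sum, and the count of higher genes was 12 with a pseudocount of 5 FPKM, 5 at 4-fold and 19 at the same sum. Of all genes above the level filter, 5.00%, 1.49% and 4.49% were higher at those 3 settings. For OVA+PM10 against PM10, the median was 1.49 with a pseudocount of 0.25 FPKM, 0.57 with 5 FPKM and 1.51 at the same sum, and the count of higher genes was 10 with a pseudocount of 5 FPKM and 4 at 4-fold, where 3.51% and 2.14% of all genes were higher. For PM10 against control, the median was 0.45 with a filter at 5 FPKM and −0.76 at the same sum. The count of higher genes was then 0 with a pseudocount of 5 FPKM, 9 at 1.5-fold, 0 at 4-fold and 0 at the same sum, and that of lower genes 2 with a pseudocount of 0.25 FPKM, 2 at 1.5-fold, 11 at the same sum and 1 with the length trend removed. By construction, a larger pseudocount shrinks the ratios and a smaller one widens them. A higher fold likewise lowers the counts and a lower one raises them. At the same sum the median of all genes moved too, as given above. The cause of the other moves was not tested. Depth limits the values with the fewest reads, such as Ccne2 and Plk1 with about 9 reads each in PM10.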
